A study of Mus musculus with 16 samples.

Results

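The genes described are 8 autosomal germline genes that are commonly silenced by methylation of their promoters in somatic cells: Dazl, Ddx4, Dppa3, Mael, Stk31, Sycp1, Sycp3 and Tex101. They were taken by name, matched to the Ensembl identifiers of the count files through GENCODE release M21, and followed as total read counts in all conditions, 8 genes of the 55421 counted. Each had 1 matching identifier and each passed the filter on low counts. DNA methylation was not measured in these libraries, so the description of the genes as methylation-sensitive is background and was not checked here.

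In the germline these genes build the machinery of germ cells. Dazl is an RNA-binding protein that controls translation, Ddx4 (mouse vasa homologue) is an RNA helicase of germ granules, Mael acts in the piRNA pathway that silences transposons, and Stk31 carries a Tudor domain and a kinase domain. Sycp1 and Sycp3 are structural proteins of the synaptonemal complex that holds paired chromosomes together in meiosis, Tex101 is a surface protein of germ cells, and Dppa3 (Stella, PGC7) is a maternal factor that shields DNA methylation in the early embryo and is also made by naive ESCs. Mouse ESCs grown in serum transcribe several of these genes at a low level, and the CpG-rich promoters of such genes gain methylation when the epiblast forms, with help from the E2F6 and MGA-MAX repressor complexes, the latter of which binds the E-box CACGTG.

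The libraries came from female F1 129/Sv x Cast/Ei hybrid mouse ESCs whose endogenous Xist promoter on the Cast X chromosome responds to doxycycline. Wt cells carried no other change named in the labels. In Spen-/- cells the complete open reading frame of Spen, a transcriptional repressor that binds Xist RNA, had been deleted with CRISPR/Cas9. For each genotype 4 conditions were sequenced with 2 libraries each, 16 libraries in all: undifferentiated ESCs (day 0) without doxycycline, day 0 after 4 days with 2 µg/mL doxycycline, day 3 of monolayer differentiation without it, and day 7 of differentiation with it, given for the 4 days before day 0 as well as during differentiation. ESCs grew on male feeder cells with serum and LIF, and feeders were removed by plating before differentiation. Doxycycline-treated cells were sorted for dsRed, so treatment and sorting cannot be told apart, and day 7 (with doxycycline) was compared with day 0 with doxycycline while day 3 (without it) was compared with day 0 without it. The design text calls the libraries biological replicates, but the labels do not say whether they came from separate clones, so p-values measure the spread between these libraries. Total RNA was amplified by Smart-seq2, a full-length cDNA method for very small inputs, and read as 50 bp single ends.

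Reads on genes ranged from 7571566 to 14822867 per library. Spen had 16.2 to 43.5 CPM (reads scaled to a common library size by the TMM method) in Wt libraries and 0.129 to 5.45 CPM in the Spen-/- libraries, a log2 difference of -4.37 ± 0.48 (SE) over the 4 conditions (edgeR quasi-likelihood test, adjusted p = 0.000618). The Spen-/- day 7 libraries stood apart from the rest, with the fewest genes detected (15324 and 14969, against 16952 to 23458 in the others) and the lowest correlation between replicates (0.832, against 0.876 to 0.958). Every comparison that uses day 7 of Spen-/- cells rests on this pair of libraries, and leaving out either of them is given beside the results it changed.

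The 8 genes lie on 7 chromosomes of GRCm38, and all are protein coding. The RNA regulators are Dazl (ENSMUSG00000010592, chromosome 17, 50279395 to 50293636), Ddx4 (ENSMUSG00000021758, chromosome 13, 112598333 to 112652475), Mael (ENSMUSG00000040629, chromosome 1, 166201201 to 166238747) and Stk31 (ENSMUSG00000023403, chromosome 6, 49395604 to 49469501). The synaptonemal complex genes are Sycp1 (ENSMUSG00000027855, chromosome 3, 102818499 to 102936100) and Sycp3 (ENSMUSG00000020059, chromosome 10, 88459569 to 88473236). Dppa3 (ENSMUSG00000046323) is at 122626410 to 122630272 of chromosome 6, and Tex101 (ENSMUSG00000062773) at 24668007 to 24676675 of chromosome 7. Reads were counted over exons. An exon of Sycp3 overlaps one of Chpt1, which runs the opposite way, and whether HTSeq counted by strand is not given in the sources used here, while Dppa3 and Sycp1 have pseudogenes named after them (Dppa3-ps and Sycp1-ps1) that may share reads with them. Dppa3-ps lies on the X chromosome.

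RefSeq promoters (GRCm38.p6, 250 bases before to 50 bases after the start site) were found for 7 of the 8 genes, all but Dppa3. They were rich in CpG, the dinucleotide at which DNA is methylated, with 28 CpGs in Dazl, 38 in Ddx4, 24 in Mael, 28 in Stk31, 21 in Sycp1, 15 in Sycp3 and 19 in Tex101. Their median of 24 compares with 7 over all 32851 promoters of the same length in the table. The E-box CACGTG, which reads the same on both strands, was present in 5 of the 7 promoters (71.4%), those of Ddx4, Mael, Stk31, Sycp1 and Sycp3, against 7.15% of all promoters and 11.3% of the 11378 promoters with at least 15 CpGs. The E2F-like letters TCCCGC, searched on both strands, were in 4 of 7 (57.1%), Ddx4, Mael, Sycp1 and Sycp3, against 19.98% of all promoters and 45.4% of those with at least 15 CpGs. The RefSeq start of Tex101 lies 4625 bases inside the gene's GENCODE span, so its promoter may belong to a shorter transcript. Such matches describe the letters and are no evidence that a factor binds.

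The 4 promoters below belong to the genes whose change from day 0 to day 7 differed between genotypes by the test given further on. Capitals mark each CpG and each CACGTG, and all are written in the direction of transcription. They are Ddx4 at chr13:112652261-112652560 (minus strand, CACGTG starting 29 bases before the start site), Mael at chr1:166238695-166238994 (minus strand, 223 bases before), Stk31 at chr6:49395354-49395653 (plus strand, 120 bases before) and Sycp3 at chr10:88459337-88459636 (plus strand, 64 and 43 bases before).
Ddx4: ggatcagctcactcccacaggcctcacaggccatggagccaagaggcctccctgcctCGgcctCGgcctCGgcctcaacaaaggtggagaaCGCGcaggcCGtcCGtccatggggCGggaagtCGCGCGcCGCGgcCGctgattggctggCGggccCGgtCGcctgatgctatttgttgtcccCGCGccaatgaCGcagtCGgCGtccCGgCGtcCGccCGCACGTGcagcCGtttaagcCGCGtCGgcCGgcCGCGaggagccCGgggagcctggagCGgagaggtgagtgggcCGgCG
Mael: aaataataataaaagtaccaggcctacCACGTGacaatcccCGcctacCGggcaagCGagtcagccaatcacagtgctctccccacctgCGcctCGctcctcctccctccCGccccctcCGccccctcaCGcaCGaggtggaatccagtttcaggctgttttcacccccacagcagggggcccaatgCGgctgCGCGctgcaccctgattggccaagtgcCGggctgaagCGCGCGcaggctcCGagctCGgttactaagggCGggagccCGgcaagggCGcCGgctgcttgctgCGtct
Stk31: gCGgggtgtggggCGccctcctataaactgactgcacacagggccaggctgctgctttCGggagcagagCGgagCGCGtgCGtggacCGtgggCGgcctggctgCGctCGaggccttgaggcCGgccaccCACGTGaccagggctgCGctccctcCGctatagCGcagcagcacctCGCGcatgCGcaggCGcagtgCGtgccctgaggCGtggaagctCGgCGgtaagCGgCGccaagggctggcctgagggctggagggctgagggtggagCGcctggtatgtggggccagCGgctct
Sycp3: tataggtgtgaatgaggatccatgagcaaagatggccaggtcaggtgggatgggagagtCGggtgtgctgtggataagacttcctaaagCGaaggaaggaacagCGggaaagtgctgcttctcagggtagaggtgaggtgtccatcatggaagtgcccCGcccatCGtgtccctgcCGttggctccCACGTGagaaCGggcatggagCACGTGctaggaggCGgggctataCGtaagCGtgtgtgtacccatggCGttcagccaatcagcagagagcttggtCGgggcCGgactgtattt

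Before day 7, the germline genes were transcribed in both genotypes. Of the 8 genes, all but Tex101 had reads in each of the 12 libraries of days 0 and 3. Per kilobase of exon, the scale on which genes can be compared, Dppa3 was the highest with a median of 76.1 CPM over these libraries, followed by Sycp3 with 25.5 CPM per kilobase. Mael (9.58), Ddx4 (9.15), Dazl (5.98), Stk31 (5.35) and Sycp1 (3.93 CPM per kilobase) were lower. Tex101 was at the edge of detection, with 0 to 27 reads and none in 5 of the 12 libraries. Summed over the 8 genes, CPM lay between 150 and 304 in these libraries, and between 86.1 and 220 CPM without Dppa3.

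At day 7 the genotypes parted. In Wt cells Dazl, Mael and Tex101 had no reads and the others except Dppa3 were at 0 to 2.69 CPM, while in Spen-/- cells 7 of the 8 had reads in both libraries. Their summed CPM was 15.7 and 16.1 in the Wt day 7 libraries and 266 and 212 in the Spen-/- day 7 libraries, and 4.55 and 3.99 against 236 and 175 without Dppa3. With adjustment over all 18150 genes tested, 7 of 8 exceeded their Wt level in Spen-/- cells at day 7 (edgeR quasi-likelihood test with Benjamini-Hochberg adjustment, threshold 0.05), where 3.1% of all genes were called higher and 7.11% in either direction. The median of the fitted log2 differences was 5.20 over the 8 genes, or 5.13 over the 7 without Tex101 with the groups at 0 reads set to a floor of 3 reads, against -0.14 over all genes. In these 7 genes each Spen-/- library was above each Wt library, as in 19.6% of all genes. In these bulk libraries fewer expressing cells and less RNA per cell cannot be told apart.

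**Figure D1:**
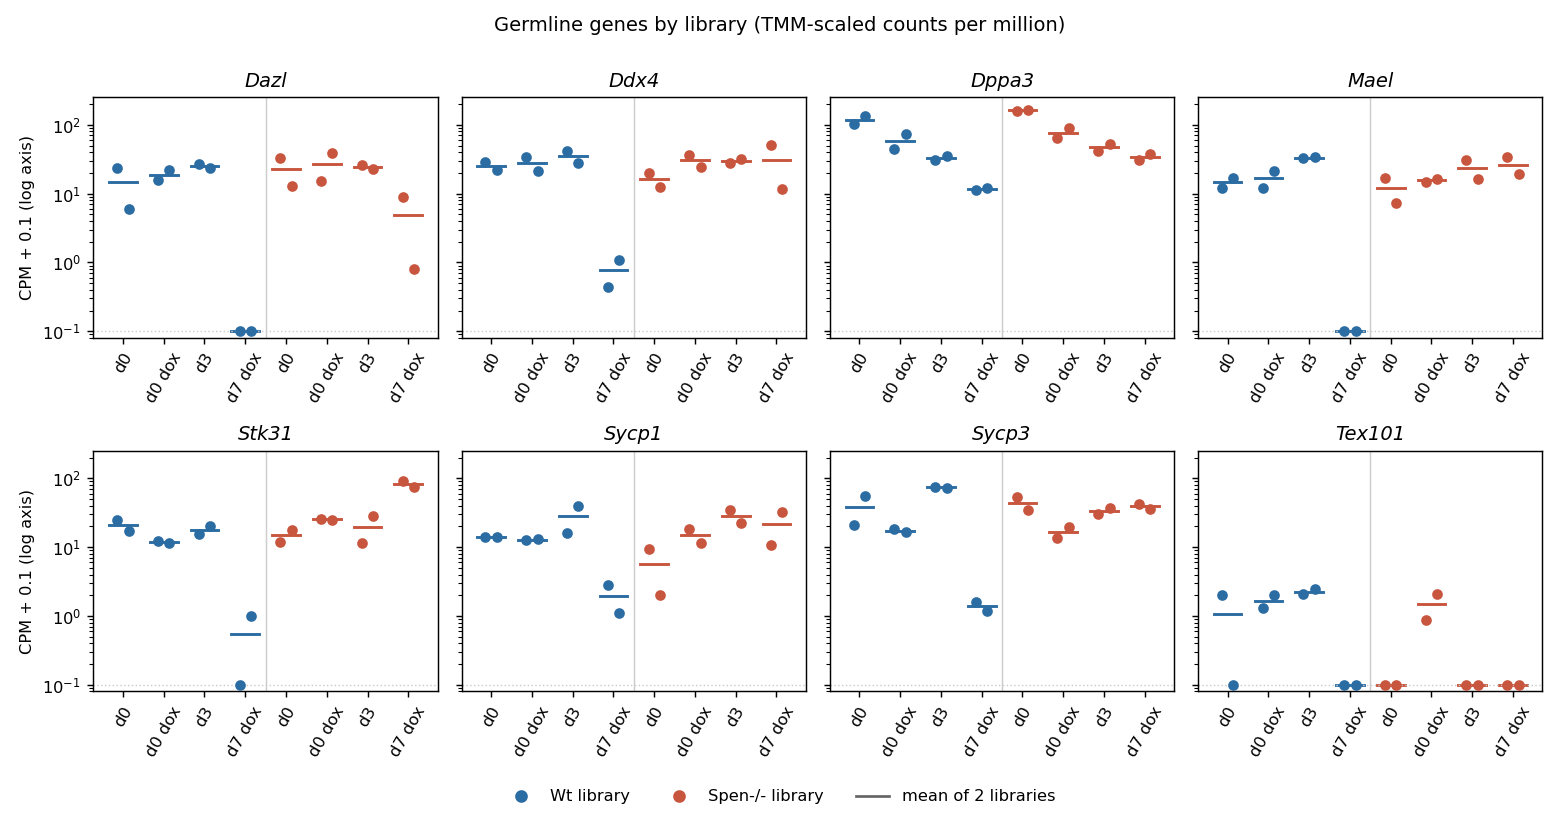
CPM of each germline gene (vertical axis, log scale, with 0.1 CPM added so that 0 reads can be drawn) in the 16 libraries, by condition (d0, d3 and d7 for the day, dox for doxycycline). Points are libraries and bars the mean of 2. In 7 of 8 genes the Wt day 7 libraries lie below the Spen-/- day 7 libraries, and for Tex101 all 4 are at 0 reads.

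Among the RNA regulators, Mael had 0 reads in both Wt day 7 libraries and 260 and 164 reads (33.4 and 19.1 CPM) in the Spen-/- day 7 libraries. Against a floor of 3 reads over the Wt pair (0.131 CPM), it was at least 198-fold higher in Spen-/- cells (edgeR, adjusted p = 0.000171). Stk31 had 0 and 10 reads (0 and 0.906 CPM) in Wt and 706 and 644 reads (90.8 and 74.9 CPM) in Spen-/- cells. Its log2 fold change was 7.50 ± 1.04 (SE, n = 2 and 2 libraries, edgeR, adjusted p = 0.00125), and its Spen-/- day 7 libraries were the highest of the 16. The size of this fold rests on Wt day 7 replicate 2, which held all the Wt reads, with a log2 value of 12.67 without it and 6.45 without Wt day 7 replicate 1, both called. Ddx4 had 4 and 11 reads (0.337 and 0.997 CPM) in Wt against 389 and 99 reads (50.0 and 11.5 CPM) in Spen-/- cells, a log2 fold change of 5.51 ± 0.81 (edgeR, adjusted p = 0.00183). The Spen-/- replicates of Ddx4 differed by 4.35-fold, yet the lower of them was still above both Wt libraries. Dazl had 0 reads in both Wt libraries and 69 and 6 reads (8.87 and 0.697 CPM) in the Spen-/- libraries. It was at least 35.0-fold higher in Spen-/- cells over the pair (edgeR, adjusted p = 0.0157), but the call was lost without Spen-/- day 7 replicate 1, which held nearly all of its reads (adjusted p = 0.0747).

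Both synaptonemal complex genes were also higher in Spen-/- cells at day 7. Sycp3, which forms the axial elements along meiotic chromosomes, had 18 and 12 reads (1.52 and 1.09 CPM) in Wt and 324 and 312 reads (41.7 and 36.3 CPM) in Spen-/- cells, a log2 fold change of 4.89 ± 0.54 (edgeR, adjusted p = 0.000246). Sycp1, which joins these axes as the transverse filament, had 32 and 11 reads (2.69 and 0.997 CPM) against 84 and 278 reads (10.8 and 32.3 CPM), a log2 fold change of 3.54 ± 0.88 (edgeR, adjusted p = 0.0319). In both genes the groups did not overlap, but the call of Sycp1 was lost without Spen-/- day 7 replicate 2 (edgeR, adjusted p = 0.106).

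Dppa3 and Tex101 did not share the pattern in full. Dppa3 kept 133 and 134 reads (11.2 and 12.1 CPM) in Wt cells at day 7 and had 237 and 322 reads (30.5 and 37.4 CPM) in Spen-/- cells. Its log2 fold change of 1.54 ± 0.31 (edgeR, adjusted p = 0.0102) was the smallest among the 7 genes called. Tex101 had 0 reads in all 4 libraries of day 7, so no fold is given. Without replicate 1 or without replicate 2 of Wt day 7, the calls fell from 7 to 4 genes in either case, Ddx4, Mael, Stk31 and Sycp3. When the 4 libraries of day 7 were fitted alone, Dazl and Tex101 did not pass the filter on low counts. In that fit 0 of the other 6 passed the threshold after adjustment by edgeR, as did 0 of all 14376 genes tested (0%). All 6 were under an unadjusted p of 0.05, with Mael, Stk31 and Sycp3 each at an adjusted p of 0.0677.

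**Figure D2:**
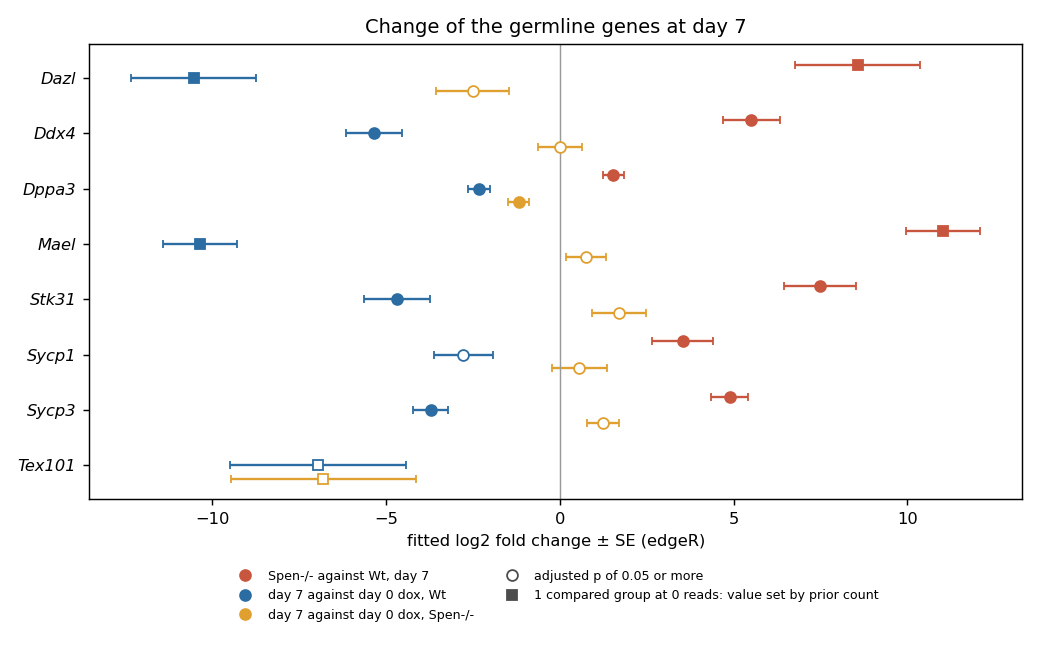
Fitted log2 fold changes (horizontal axis, edgeR, ± SE derived from the F statistic of the test) of the 8 genes for Spen-/- against Wt cells at day 7 and for day 7 against day 0 with doxycycline in each genotype. Filled symbols passed an adjusted p of 0.05. Squares mark values with 1 compared group at 0 reads, which depend on the prior count, and Tex101 at day 7 has no value between genotypes because both groups had 0 reads. Falls in Wt cells lie left of 0 and differences between genotypes right of it.

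The change from day 0 to day 7 was then followed in each genotype, among doxycycline-treated cells. In Wt cells 6 of the 8 genes fell (edgeR), where 3.09% of all genes were called lower, and DESeq2 called 7 (10.4% of all genes were called in either direction). All 8 were lower in both Wt day 7 libraries than in either Wt day 0 library, as were 28.6% of all genes. This comparison and that between genotypes share the Wt day 7 libraries, so they are not independent of each other.

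In Wt cells Mael had 184 and 201 reads (11.9 and 21.1 CPM) at day 0 with doxycycline and none at day 7, a fall of at least 117-fold (edgeR, adjusted p = 0.000307). Dazl had 240 and 207 reads (15.5 and 21.7 CPM) at day 0 and none at day 7, a fall of at least 136-fold (edgeR, adjusted p = 0.00729). Ddx4 had 524 and 201 reads (33.8 and 21.1 CPM) at day 0, and its log2 fold change to day 7 was -5.35 ± 0.80 (SE, edgeR, adjusted p = 0.00259). Each of the 3 was at 0.997 CPM or less in both Wt day 7 libraries. The call of Dazl was lost without Wt day 7 replicate 1 (adjusted p = 0.0747) or replicate 2 (adjusted p = 0.0681).

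Stk31 had 188 and 109 reads (12.1 and 11.4 CPM) in Wt cells at day 0 with doxycycline and a log2 fold change of -4.69 ± 0.94 to day 7 (edgeR, adjusted p = 0.0140), a call lost without Wt day 0 dox replicate 1 (adjusted p = 0.0544) and when the 4 libraries were fitted alone (adjusted p = 0.0578). The value was -9.86 without Wt day 7 replicate 2 and -3.69 without replicate 1. Sycp3 had 282 and 157 reads (18.2 and 16.5 CPM) at day 0 and a log2 fold change of -3.72 ± 0.51 (edgeR, adjusted p = 0.00148). Sycp1, with 193 and 125 reads (12.4 and 13.1 CPM) at day 0, had a log2 fold change of -2.78 ± 0.85 that did not pass (edgeR, adjusted p = 0.0983), but it passed when the 4 libraries were fitted alone (adjusted p = 0.0467). Dppa3, from 695 and 690 reads (44.8 and 72.5 CPM), had the smallest change among the genes called, with a log2 fold change of -2.33 ± 0.32 (edgeR, adjusted p = 0.00127). Tex101 had 19 and 18 reads at day 0 and none at day 7 (edgeR, adjusted p = 0.208).

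In Spen-/- cells the same interval gave 1 call, the fall of Dppa3, where 4.98% of all genes were called lower and 8.33% in either direction. Dppa3 went from 489 and 814 reads (63.3 and 90.9 CPM) at day 0 with doxycycline to 237 and 322 reads at day 7, a log2 fold change of -1.18 ± 0.30 (SE, edgeR, adjusted p = 0.0337). The call was lost without Spen-/- day 0 dox replicate 2 (adjusted p = 0.174), without Spen-/- day 7 replicate 1 (adjusted p = 0.113) and without Spen-/- day 7 replicate 2 (adjusted p = 0.0530). At an unadjusted p under 0.05 there were 5 genes (24.5% of all genes in either direction), and DESeq2 called 3 (17.1% of all genes in either direction), Dppa3 as lower and Stk31 and Sycp3 as higher at day 7.

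None of the other 7 genes passed the test in Spen-/- cells. Mael had 114 and 147 reads (14.8 and 16.4 CPM) at day 0 with doxycycline, a log2 fold change of 0.75 ± 0.58 to day 7 (edgeR, adjusted p = 0.465). Ddx4 had 284 and 220 reads (36.8 and 24.6 CPM) at day 0 and a log2 fold change of 0.00 ± 0.64 (edgeR, adjusted p = 1). Its day 7 libraries lay above and below both of its day 0 libraries.

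Stk31 had 197 and 225 reads (25.5 and 25.1 CPM) at day 0 with doxycycline in Spen-/- cells and a log2 fold change of 1.71 ± 0.77 to day 7 (edgeR, adjusted p = 0.200). Sycp3 had 105 and 172 reads (13.6 and 19.2 CPM) at day 0 and a log2 fold change of 1.25 ± 0.45 (edgeR, adjusted p = 0.117). For both, as for Mael, each day 7 library was above each day 0 library, which held for 16.5% of all genes. Sycp1 had 139 and 102 reads (18.0 and 11.4 CPM) at day 0 and a log2 fold change of 0.55 ± 0.79 (edgeR, adjusted p = 0.748). Dazl had 117 and 353 reads (15.2 and 39.4 CPM) and was lower at day 7, by a log2 fold change of -2.51 ± 1.04 that did not pass (edgeR, adjusted p = 0.171), although it was called when low counts were not filtered. Tex101 had 6 and 18 reads at day 0 and none at day 7 (edgeR, adjusted p = 0.171).

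Whether the change from day 0 to day 7 differed between the genotypes was tested as an interaction in the same fit. The difference passed for 4 of 8 genes, all with a smaller fall or a rise in Spen-/- cells, where 0.915% of all genes were called in that direction. The differences were 4.97 ± 0.68 on the log2 scale for Sycp3 (SE, edgeR, adjusted p = 0.00331), 5.35 ± 1.004 for Ddx4 (edgeR, adjusted p = 0.0182) and 6.40 ± 1.21 for Stk31 (edgeR, adjusted p = 0.0186). Mael also passed (edgeR, adjusted p = 0.00137), with a fitted value that depends on the prior count because Wt day 7 had 0 reads. For Dazl (adjusted p = 0.0965), Sycp1 (adjusted p = 0.211) and Dppa3 (1.14 ± 0.43, adjusted p = 0.251) the difference did not pass, though all 3 were under an unadjusted p of 0.05, as were 14% of all genes. The calls fell to Mael and Sycp3 without Wt day 0 dox replicate 1, without Spen-/- day 0 dox replicate 1 or without Spen-/- day 0 dox replicate 2, and to Mael alone when only the 8 libraries involved were fitted. Ddx4 was also lost without Wt day 7 replicate 1 (adjusted p = 0.110) and Stk31 without Wt day 0 dox replicate 2 (adjusted p = 0.0595), and the value of Stk31 was 11.57 without Wt day 7 replicate 2.

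At day 0 and day 3 no gene of the 8 differed between the genotypes after adjustment. By edgeR, 0 were called at day 0 without doxycycline (0% of all genes), 0 at day 0 with doxycycline (0.0826% of all genes in either direction) and 0 at day 3 (0% of all genes), and DESeq2 also called 0 in each (0.204%, 2.46% and 0.0386% of all genes). At an unadjusted p under 0.05 there were 1, 0 and 2 genes (4.56%, 10.2% and 3.22% of all genes). The median log2 difference of the 8 genes was -0.37, 0.18 and -0.15 in these conditions. Sycp3 at day 3 had 842 and 833 reads (74.8 and 72.7 CPM) in Wt and 288 and 394 reads (30.3 and 37.4 CPM) in Spen-/- cells, lower in the latter by a log2 fold change of -1.12 ± 0.45 (SE, edgeR, unadjusted p = 0.0276, adjusted p = 1). This was the reverse of its order at day 7.

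Tex101 had at most 27 reads in any library, so its pattern is given as counts. In Wt cells it had 22 and 0 reads in untreated ESCs, 19 and 18 in treated ESCs and 22 and 27 at day 3. In Spen-/- cells it had reads only at day 0 with doxycycline, 6 and 18, and 0 in the other 6 libraries. At day 3 it was at least 14.4-fold lower in Spen-/- cells (edgeR, unadjusted p = 0.0225, adjusted p = 1).

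Averaged over the 4 conditions, 4 of 8 genes were higher in Spen-/- cells, where 2.19% of all genes were called higher. They were Mael, Stk31 (log2 difference 2.07 ± 0.40, edgeR, adjusted p = 0.0151), Sycp3 (0.97 ± 0.23, adjusted p = 0.0337) and Dppa3 (0.73 ± 0.15, adjusted p = 0.0191). Without Wt day 7 replicate 2 the value of Stk31 was 3.36. Of the 4 conditions taken singly, day 7 alone gave a call for any of them. For Dppa3 the difference was in the same direction in every condition, with log2 values of 0.45 ± 0.30 in untreated ESCs, 0.40 ± 0.30 in treated ESCs, 0.53 ± 0.30 at day 3 and 1.54 ± 0.31 at day 7. The average depends on single libraries, with 1 call (Mael) without Wt day 3 replicate 1 and 2 (Mael and Stk31) without Wt day 0 dox replicate 1, Wt day 3 replicate 2, Spen-/- day 3 replicate 2 or either Wt day 7 library. Without Spen-/- day 7 replicate 2 there were 6, Dazl and Ddx4 in addition, as with DESeq2 (12.4% of all genes called in either direction) or without the filter on low counts.

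From day 0 to day 3, without doxycycline, Dppa3 was the only gene of the 8 that was called, and it fell in both genotypes. In Wt cells it went from 1175 and 1019 reads (102 and 135 CPM) to 340 and 400 reads (30.2 and 34.9 CPM), a log2 fold change of -1.86 ± 0.31 (SE, edgeR, adjusted p = 0.0136, with 0.953% of all genes called lower). In Spen-/- cells it went from 1367 and 1207 reads (160 and 164 CPM) to 395 and 550 reads (41.5 and 52.2 CPM), a log2 fold change of -1.79 ± 0.31 (edgeR, adjusted p = 0.0150, with 0.656% of all genes called lower). The fall did not differ detectably between genotypes, with an interaction of 0.07 ± 0.42 (edgeR, adjusted p = 1, 0% of all genes called). None of the 8 genes differed in this way by edgeR, 0 at an unadjusted p under 0.05 (3.43% of all genes) and 0 by DESeq2 (0.011% of all genes). Its calls were lost in Wt cells without Wt day 0 no dox replicate 2 or either Wt day 3 library (adjusted p = 0.0956 to 0.248), and in Spen-/- cells without Spen-/- day 0 no dox replicate 2 or either Spen-/- day 3 library (adjusted p = 0.0918 to 0.233).

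None of the other 7 genes was called at day 3. In Wt cells Mael, Sycp1, Sycp3 and Tex101 were higher in both day 3 libraries than in both day 0 libraries, Mael with 139 and 127 reads (12.1 and 16.8 CPM) at day 0 and 364 and 393 reads (32.3 and 34.3 CPM) at day 3. Higher without overlap were also 28.1% of all genes, and none of the 4 passed the test (Mael log2 fold change 1.21 ± 0.58, edgeR, adjusted p = 0.404). In Spen-/- cells the genes without overlap were Ddx4 and Sycp1 (24.6% of all genes were higher without overlap), and Sycp1 had 80 and 14 reads (9.34 and 1.91 CPM) at day 0 and 325 and 234 reads (34.2 and 22.2 CPM) at day 3 (log2 fold change 2.32 ± 0.83, edgeR, adjusted p = 0.243). Dazl had 270 and 44 reads (23.5 and 5.82 CPM) at day 0 without doxycycline in Wt cells and 302 and 267 (26.8 and 23.3 CPM) at day 3, with 283 and 93 and then 244 and 236 reads in Spen-/- cells.

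Doxycycline at day 0, compared together with the sort, gave no call among the 8 genes in either genotype by edgeR, with 0.149% of all genes called in Wt and 0.0716% in Spen-/- cells. At an unadjusted p under 0.05 there were 2 genes in Wt cells, Dppa3 and Sycp3 (7.15% of all genes), and 3 in Spen-/- cells, the same pair and Tex101 (8.09% of all genes). Dppa3 was lower with doxycycline in each genotype without overlap of the libraries (17.1% of all genes in Wt and 16.5% in Spen-/- cells), with a log2 fold change of -1.01 ± 0.30 in Wt (edgeR, adjusted p = 0.366) and -1.07 ± 0.30 in Spen-/- cells (adjusted p = 0.329), and DESeq2 called it in the latter, 1 gene of 8 (1.87% of all genes). Sycp3 was lower by -1.14 ± 0.45 and -1.41 ± 0.45 on the log2 scale (edgeR, adjusted p = 0.613 and 0.435). The difference of the doxycycline effect between genotypes had 0 calls (0% of all genes), 0 at an unadjusted p under 0.05 (5.83% of all genes) and 0 by DESeq2 (0.369% of all genes).

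A wider list of 41 germline genes, none of them among the 8, was read in the same way, and 38 of these were expressed enough to be tested. At day 7, 12 were called higher (3.1% of all genes) and 1 lower (728 of the 18150 genes tested) in Spen-/- cells. The median log2 difference was 1.79 (2.61 over 33 genes with groups at 0 reads set to the floor). It was 5.20 for the 8 genes and -0.14 for all genes. By the size of the fitted value, which depends on the prior count where a group had 0 reads, the first 4 were Rpl10l (0 and 0 CPM in Wt, 30.3 and 19.1 in Spen-/-, at least 187-fold higher), Sycp2, a partner of Sycp3 (0 and 0 against 17.6 and 18.4 CPM, at least 138-fold higher), Tuba3b (0 and 0 against 19.8 and 8.14 CPM, at least 104-fold higher) and Tdrd7, which went the other way (11.9 and 15.1 against 0 and 0 CPM, at least 73.4-fold lower). By reads the order is another, since Sohlh2 had 3 and 0 reads in Wt and 957 and 1180 in Spen-/- cells, and Hormad1 0 and 6 against 390 and 608. Rpl10l is a retrogene close in sequence to the ribosomal gene Rpl10, and Tuba3b is close to Tuba3a, so their reads may be shared with those copies. From day 0 to day 7 with doxycycline, 11 of the 38 fell in Wt cells (3.09% of all genes) and 4 fell in Spen-/- cells (4.98% of all genes), with none called higher in either. The 4 in Spen-/- cells were Dmrtb1, Slc25a31, Fkbp6 and Tdrd12, of which all but Slc25a31 also fell in Wt cells. For 6 of the 38 the change differed between genotypes (edgeR), all in the direction in which 0.915% of all genes were called, as it did for 4 of the 8.

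**Figure D3:**
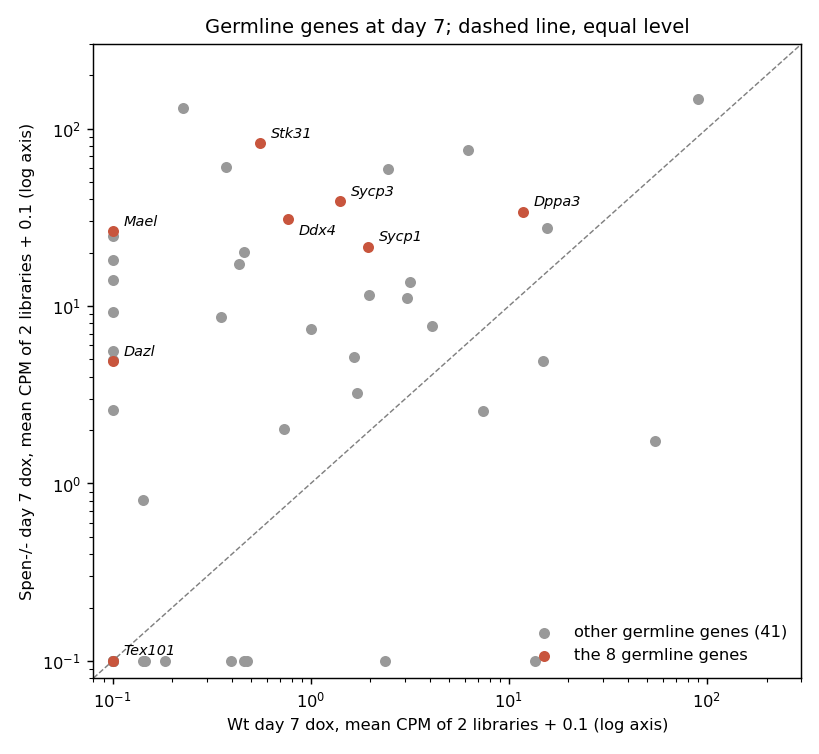
Mean CPM of 2 libraries plus 0.1 at day 7 in Wt cells (horizontal, log axis) and in Spen-/- cells (vertical, log axis) for the 8 germline genes (red) and 41 other germline genes (grey). Points above the dashed line are higher in Spen-/- cells. Of the 8 genes all but Tex101, at 0 reads in both, lie above the line, and the other germline genes lie on both sides of it.

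Enzymes of DNA methylation and its oxidation, and genes listed as repressors of germline genes, were looked at beside them. Between genotypes at day 7, 3.1% of all genes were called higher and 7.11% in either direction. Of 8 enzymes of DNA methylation and its oxidation, Dnmt3l, the cofactor of the de novo methyltransferases, was higher in Spen-/- cells at day 7 (1.26 and 3.17 CPM in Wt, 114 and 128 in Spen-/-, log2 fold change 5.77 ± 0.49, edgeR, adjusted p = 5.03e-05). Dnmt1, which maintains methylation at replication, was lower (230 and 162 against 71.7 and 76.1 CPM, log2 fold change -1.41 ± 0.25, edgeR, adjusted p = 0.00508), and the other 6 did not pass. Of 14 genes listed as repressors, Max, the E-box binding partner of MGA, was lower in Spen-/- cells (120 and 139 against 24.2 and 50.5 CPM, log2 fold change -1.80 ± 0.35, edgeR, adjusted p = 0.00879) and Zfp57, which keeps methylation at imprinted regions, was higher (103 and 136 against 555 and 410 CPM, log2 fold change 2.02 ± 0.39, edgeR, adjusted p = 0.00797), while 12 did not pass. The part of these genes in the levels of the 8 germline genes was not tested.

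Markers of cell types also differed at day 7, where 3.1% of all genes were called higher in Spen-/- cells and 7.11% in either direction. At such shares the absence of a call in a short list says little. Of 10 naive pluripotency markers 5 were higher and 2 lower in Spen-/- cells, with summed levels of 175 to 189 CPM in Wt and 651 to 798 CPM in Spen-/- cells and none at 0 in both libraries of a group. Zfp42 (Rex1) had 18.9 and 18.9 CPM in Wt and 323 and 293 CPM in Spen-/- cells, and Tfcp2l1 (log2 fold change 2.88 ± 0.46) and Esrrb (2.19 ± 0.36) were also higher, while Prdm14 was lower (-4.13 ± 1.03, edgeR, adjusted p = 0.0328). Of 6 primordial germ cell markers none was called higher and 3 were lower (Kit, Dnd1 and Prdm14, which is in both lists), with summed levels of 235 to 259 CPM in Wt and 168 to 169 CPM in Spen-/- cells, and Kit had 0 reads in both Spen-/- libraries. Of 12 markers of differentiating cells 1 was higher (Krt18) and 2 were lower (T and Vim), with sums of 3608 to 3754 CPM in Wt and 6367 to 7551 CPM in Spen-/- cells and 3 of the 12 at 0 in the latter. The keratins Krt8 and Krt18 made up most of these sums, while 9 of the 12 had a lower fitted value in Spen-/- cells and the median log2 difference was -2.69. Of 8 fibroblast markers that could mark feeders none was called, with sums of 71.9 to 86.4 CPM in Wt and 46.8 to 102 CPM in Spen-/- cells, and the 4 Y-linked genes of male feeders summed to 0 in Wt and 0 to 0.116 CPM in Spen-/- cells at day 7. The 7 markers of 2-cell-like cells summed to 3.37 to 8.43 CPM in Wt and 48.9 and 0 CPM in Spen-/- replicates 1 and 2, with none called. The part of these markers in the day 7 difference of the 8 genes was not tested.

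Because the cells are 129/Cast hybrids, reads over a variant show which parental copy was read. The 8 genes had unequal shares, given as descriptions. Over all 16 libraries 10.4% of 96 allele-specific reads of Mael and 11.4% of 297 of Sycp3 came from Cast, against 37.5% of 5876 for Dppa3, 41.1% of 739 for Ddx4, 60.6% of 289 for Dazl, 74.1% of 263 for Stk31 and 81.8% of 358 for Sycp1, while Tex101 had 11 such reads in all. Over autosomal genes the Cast share had a median between 47.5% and 49.8% in each condition. Sycp3 stayed on the 129 side in each of the 6 conditions with at least 20 reads, from 6.38% to 27.3%. Dppa3 ranged from 26.1% of 142 reads in Wt day 7 (exact 95% binomial interval 19.1% to 34.1%) to 51.2% of 449 reads in Wt day 3 (46.5% to 55.9%). These intervals take in counting error alone, because the reads carry no molecular identifiers and several may stem from 1 molecule.

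Ddx4 was read from 1 copy alone in Spen-/- day 7. In the 6 conditions before day 7 its Cast share, with the libraries summed, lay between 35.8% and 63.4% on 51 to 148 reads. Single libraries before day 7 spread more widely. The lowest was 20% of 20 reads in replicate 2 of Spen-/- day 0 without doxycycline, against 58.1% in replicate 1. The highest was 84.2% of 38 reads in replicate 2 of Wt day 0 with doxycycline, against 47.4% in replicate 1. In Spen-/- day 7, 0 of 77 and 0 of 25 allele-specific reads of the 2 libraries came from Cast, and 0 of 102 in all allow a share of up to 3.55% (exact 95% binomial interval). In Wt day 7 there were 2 allele-specific reads, too few to compare. Shares of 0% or 100% were more frequent in Spen-/- day 7 than elsewhere, at 15.1% of the autosomal genes with 20 to 200 allele-specific reads, against 1.93% to 4.90% in the other 7 conditions. The other genes with enough reads in Spen-/- day 7 were read from both copies. With the libraries summed, Stk31 had 61.9% Cast of 84 reads, Sycp1 48.6% of 35, Sycp3 10.7% of 28 and Dppa3 43.2% of 333. In replicates 1 and 2 the shares were 41.9% and 82.9% for Stk31 and 70% and 40% for Sycp1. They were 16.7% and 6.25% for Sycp3 and 36.1% and 48.9% for Dppa3. The reverse extreme was seen in Spen-/- day 0 with doxycycline, where Stk31 and Sycp1 each had 33 of 33 reads from Cast, which allow a share of no less than 89.4% (exact 95% binomial interval). Shares in Wt day 0 with doxycycline were close to these. There Stk31 had 96.2% Cast of 26 reads (80.4% to 99.9%) and Sycp1 92.5% of 40 (79.6% to 98.4%).

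**Figure D4:**
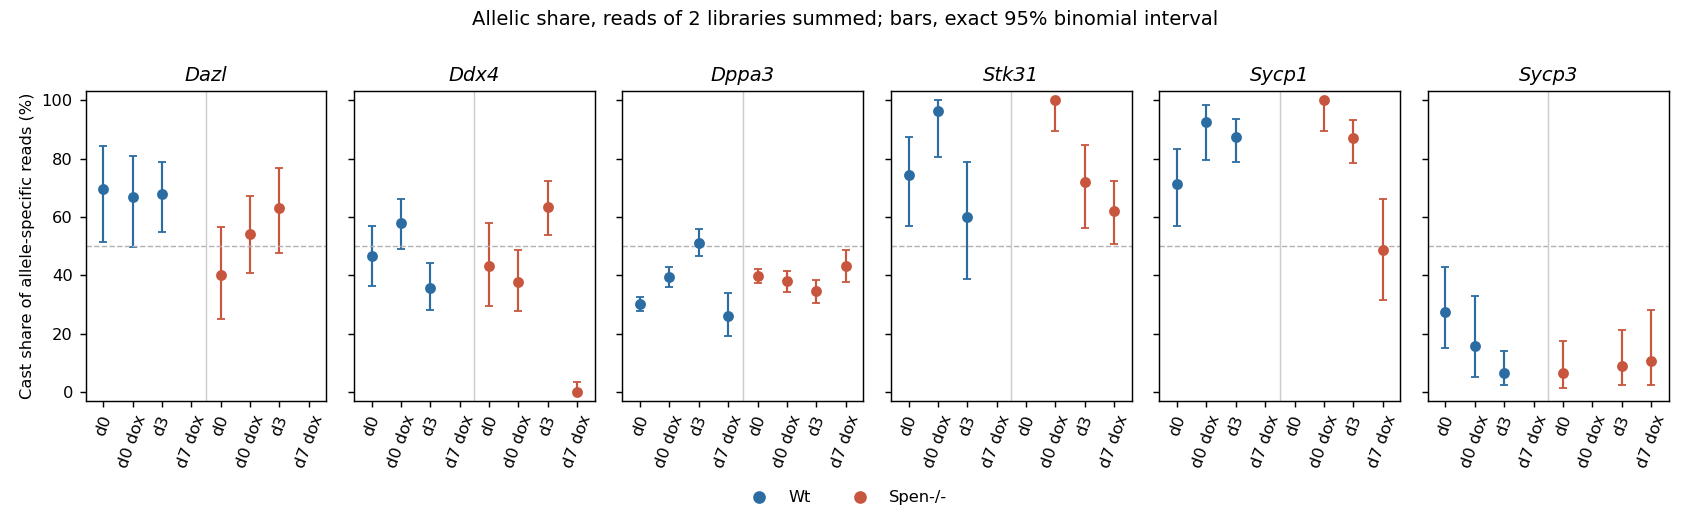
Share of allele-specific reads from the Cast copy (vertical axis, percent) for the 6 germline genes with at least 20 such reads in several conditions, with the reads of 2 libraries summed and exact 95% binomial intervals as bars. Conditions with fewer reads are left blank, and the dashed line marks 50%. Ddx4 is at 0% of 102 reads in Spen-/- day 7.

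The 8 genes were compared with each other over the libraries, as a description. Over all 16 libraries the median Pearson correlation of their log2 CPM was 0.637 over 28 pairs, and over the 14 libraries other than Wt day 7 it was 0.0572, with a range of -0.714 to 0.663. The correlation over all libraries thus rested on the Wt day 7 pair. Among the genes most like the mean of the 8 over the 16 libraries were Zfp982 (r = 0.956), Pmm1 (0.952), Inpp5d (0.952) and Hormad1 (0.946), the last of which is a meiotic chromosome protein with 0 and 0.544 CPM in Wt day 7 and 50.1 and 70.7 CPM in Spen-/- day 7. The genes most like Dppa3, the one with the most reads, were Prps1 (r = 0.970), its own pseudogene Dppa3-ps (0.965), Cacybp (0.947), Nfu1 (0.946) and Rpp25 (0.945). Prps1 and Dppa3-ps lie on the X chromosome. Mean CPM of Dppa3-ps at day 7 was 1.67 in Wt and 6.61 in Spen-/- cells. Whether reads of Dppa3-ps entered the counts of Dppa3 was not tested. The libraries share conditions and depth, so no p is given.

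In the order of the 8 conditions by mean CPM, Wt day 7 was the lowest for every gene, tied at 0 reads with 3 Spen-/- conditions for Tex101. For Sycp1 its libraries overlapped those of Spen-/- day 0 without doxycycline, with 2.69 CPM in Wt day 7 replicate 1 against 1.91 CPM in Spen-/- replicate 2. For Mael and Dazl 6 of the 7 neighbouring pairs of conditions overlapped, and for Ddx4 and Sycp1 5 did. For Stk31 and Sycp3 4 pairs overlapped. Dppa3 had the clearest order, with 3 of 7 overlapping, and its highest level was in Spen-/- ESCs at day 0 without doxycycline (162 ± 3.48 CPM, SD, n = 2), followed by Wt ESCs in the same condition (118 ± 23.1 CPM).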

How the data were processed

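Total RNA of 16 libraries was sequenced after Smart-seq2 amplification. The authors aligned 50 bp single-end reads with HISAT2 2.2.1 to an N-masked mm10 genome, split them by allele with SNPsplit 0.3.4, handled them with SAMtools 1.10 and counted them with HTSeq 0.12.4 on Ensembl 98, and deposited raw counts per gene without normalization. Strand setting and duplicate removal are not given in the sources used here. Duplicates from amplification would make counting intervals too narrow.

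The 3 deposited count columns (129, Cast and unassigned reads) were summed per gene. Lines for reads on no gene (31.6% to 45.4% of reads) stayed out. Reads on genes had a median of 9634647.5 per library. Genes passing filterByExpr at its default settings (a minimum count of 10 and a total of 15) were scaled with TMM and tested with edgeR 4.0.16 (quasi-likelihood, R 4.3.3) in 1 fit of all 16 libraries with 1 term per condition. Benjamini-Hochberg adjustment covered the 18150 genes tested. Each SE is the absolute fitted log2 fold change divided by the square root of the F statistic of its test. It is not an output of edgeR, and it is unreliable where a group had no reads. A fold against a group at 0 reads was computed against a floor of 3 reads over the group. CPM are TMM-scaled, and the log2 CPM used for correlations had a prior count of 2. Fitted log2 fold changes used the default prior count of edgeR. Cast shares needed 20 allele-specific reads per condition. Scripts were checked on simulated counts.

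Alternatives were no filter on low counts, RLE normalization, autosomal scaling, a replicate block, DESeq2 1.42.0, the compared groups alone, each library left out, and a minimum of 50 allele-specific reads. Replicate numbers did not pair the libraries, with 28 correlations between conditions from -0.061 to 0.146, 1 of them over 0.1. Named were all 8 genes, Spen, at most 4 genes per list with the highest absolute change among those called, and the 5 genes most correlated with the mean of the 8 genes and with Dppa3. Of these, 1 is not reported here. The genes and lists were chosen with earlier results of these data known. Kit, Krt18, Vim, T and Dnd1 were named as the called members of their lists, and Krt8 and Sohlh2 after their values were seen. Python 3.11.15 with pandas 2.3.3, scipy 1.17.1 and matplotlib 3.10.9 was used for the rest. No library was left out, and the study's other assays were not analysed here.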

Additional observations from a re-analysis of the deposited data

Results flagged for a closer look

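The change from day 0 to day 7 with doxycycline differed between the genotypes for 4 of the 8 genes by a test of the difference itself, an interaction term in edgeR over 2 libraries in each of 4 conditions. The difference, Spen-/- minus Wt on the log2 scale, was 4.97 for Sycp3, 5.35 for Ddx4, 6.40 for Stk31 and 11.1 for Mael, the last depending on the prior count because Mael had 0 reads in Wt day 7. All 4 rest on the Spen-/- day 7 libraries, which had the fewest genes detected, and on the Wt day 7 libraries. The calls of Ddx4 and Stk31 depended on single libraries of other conditions, as given above. When only the libraries of the 4 conditions were fitted, the call was kept for Mael alone (0.338% of all genes called in either direction).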

How the results depend on the processing

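No value of a called gene reversed under any alternative run, and of 303 alternative values of called genes 245 kept the call and 58 lost it, 45 of 160 when a library was left out, 13 of 23 when the compared groups were fitted alone and 0 of 120 under the other settings. Fitted alone, the compared groups gave 0 genes for genotype at day 7, 0 for day 3 against day 0 in Wt and 0 in Spen-/- cells. They gave 0 for day 7 against day 0 in Spen-/- cells and 1 for the genotype difference at day 7. These fits had fewer libraries to estimate the spread. Of all genes, each fit with 0 called 0%, and the fit of the genotype difference called 0.338% in either direction. The mean of 4 conditions uses every condition, so fitting its compared groups alone repeats the fit of all libraries. Its 4 calls, counted among the 23 values and the 245 kept, could not be lost there. DESeq2 gave 1 gene for doxycycline in Spen-/- cells and 3 for day 7 against day 0 in Spen-/- cells, where no filter on low counts gave 2, and the cause was not tested. Leaving out 1 library gave 4 to 6 genes for genotype at day 7, 1 to 6 for the mean of 4 conditions, 0 to 1 for day 3 in Wt and 0 to 1 in Spen-/- cells, 5 to 6 for day 7 in Wt, 0 to 1 in Spen-/- cells and 2 to 5 for the genotype difference. Without Spen-/- day 7 replicate 1, the 1 gene called from day 0 to day 7 in Spen-/- cells was Dazl and not Dppa3. The 6 genes called in Wt at day 7 with the compared groups alone (10.4% of all genes in either direction) held Sycp1 in place of Stk31. A replicate block gave the same counts as the fit without it, 7 for genotype at day 7, 6 for day 7 in Wt, 1 in Spen-/- cells and 4 for the genotype difference. With a minimum of 50 allele-specific reads, 21 Cast shares could be given in place of 40. With 2 libraries per condition and amplified RNA, Tex101, low throughout, and Dazl, low at day 7, cannot be measured closely there.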
